A study of Caenorhabditis elegans with 12 samples.

Results

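The genes described here encode 9 proteins of the apical extracellular matrix of the *C. elegans* embryo: noah-1, noah-2, let-653, dex-1, fbn-1, sym-1, let-4, lpr-1 and lpr-3. They were chosen by name, from what their proteins are known to do, but with earlier results of these data known. All 9 were found among the 20362 genes counted in each library. Polyadenylated RNA of whole embryos was measured by QuantSeq, which reads each captured transcript near its 3′ end. The 12 libraries formed 6 groups of 2, with 50 embryos in each library, grown at 20 °C. Wild-type embryos were of strain N2 and carried no mutation or array. miR-51Fam null embryos were of strain MLC1800, whose genotype in the study's strain list is nDf67, n4100 IV; nDf58 X; lucEx1057. These deletions remove the miR-51 family of microRNAs, and lucEx1057 is an extrachromosomal array with a fosmid that holds the miR-54 cluster and with the markers ttx-3::gfp and mir-35p::gfp. How embryos without the array were picked was not analysed here. Each genotype was collected at the 190-cell stage, before the epidermis encloses the embryo, at the bean stage, when the body begins to lengthen, and later in elongation at the 2-fold stage.

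Epidermal cells and the cells of narrow tubes secrete a temporary matrix onto their outer or luminal surface before the collagen cuticle is laid down. This early layer helps the embryo to hold its shape while it lengthens, keeps thin tubes open and anchors the tips of sensory dendrites. Several of its proteins share a zona pellucida (ZP) domain, with which secreted proteins assemble into filaments. Others are built of extracellular leucine-rich repeats or belong to the lipocalins, small secreted proteins that carry lipids.

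The 9 genes lie on 4 chromosomes of the WBcel235 genome. The ZP domain genes are noah-1 (chromosome I, 5874416 to 5878958, minus strand), noah-2 (chromosome IV, 14091254 to 14096626, plus strand), let-653 (chromosome IV, 11885613 to 11891082, plus strand), dex-1 (chromosome III, 5526104 to 5535507, plus strand) and fbn-1 (chromosome III, 7625386 to 7641078, plus strand). The leucine-rich repeat genes let-4 (chromosome X, 14577935 to 14580923) and sym-1 (chromosome X, 14581622 to 14584378) are neighbours on the plus strand with 698 bases between them. The lipocalin genes are lpr-1 (chromosome I, 557375 to 561671, plus strand) and lpr-3 (chromosome X, 11057401 to 11059793, plus strand). All 9 are annotated as protein coding, and QuantSeq reads come from the 3′ end of the transcript. The last 500 bases of fbn-1 overlap upp-1, and those of sym-1 and let-4 overlap C44H4.4, each on the opposite strand. The strand setting of the counting is not given in the sources used here, so reads of these neighbours could have been misassigned or lost, which was not tested. Reads set aside as ambiguous between genes were 0.0472% to 0.0882% of all reads in the 12 libraries. The counts given to C44H4.4 stayed between 4.02 and 58.4 CPM in the 12 libraries and those given to upp-1 between 13.7 and 169.6 CPM (CPM, assigned reads after scaling all libraries to an equal total).

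Depth was uneven. Null 190-cell replicate 1 had 11081 assigned reads and 3231 detected genes. Its TMM factor was 2.216, against 0.781 to 1.151 in the other 11 libraries, so that 1 read there is worth 40.7 CPM. The other 11 libraries had 887059 to 9558104 reads. Reads per captured molecule were estimated at 1.09 in the shallow library and at 3.68 to 56.8 in the others, so the deposited counts appear to hold many copies of a molecule, and low levels are less precise than the reads alone would imply. A floor of 3 estimated molecules summed over the 2 libraries of a group is 7.50 to 12.4 CPM in 5 of the groups and 21.4 CPM in the null 190-cell group. It covers counting error only. Differences were tested across all 12062 genes with 20 or more counts, which included all 9, by edgeR's quasi-likelihood test with Benjamini-Hochberg adjustment (a call means an adjusted p under 0.05). The replicates were described by the study as independent, and with 2 in each group the spread is estimated over all 6 groups together.

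Summed over the 9 genes, the level in wild-type embryos was 250.4 and 538.9 CPM at the 190-cell stage, 2608.4 and 2945.8 CPM at the bean stage and 4222.7 and 2677.9 CPM at the 2-fold stage. The sums in null embryos were 529.3 and 459.2 CPM, then 4459.4 and 4918.0 CPM, then 5314.6 and 5002.3 CPM. The sum was thus lower in every 190-cell library than in every later library, a course that not every gene shared. Their timing fell into 3 patterns, which the following paragraphs take in turn: genes that came on by the bean stage and stayed (noah-1, noah-2 and dex-1), genes that were highest at the bean stage (fbn-1, let-653, sym-1 and, in wild-type embryos, let-4) and lipocalin genes whose level was low until the 2-fold stage.

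**Figure D1:**
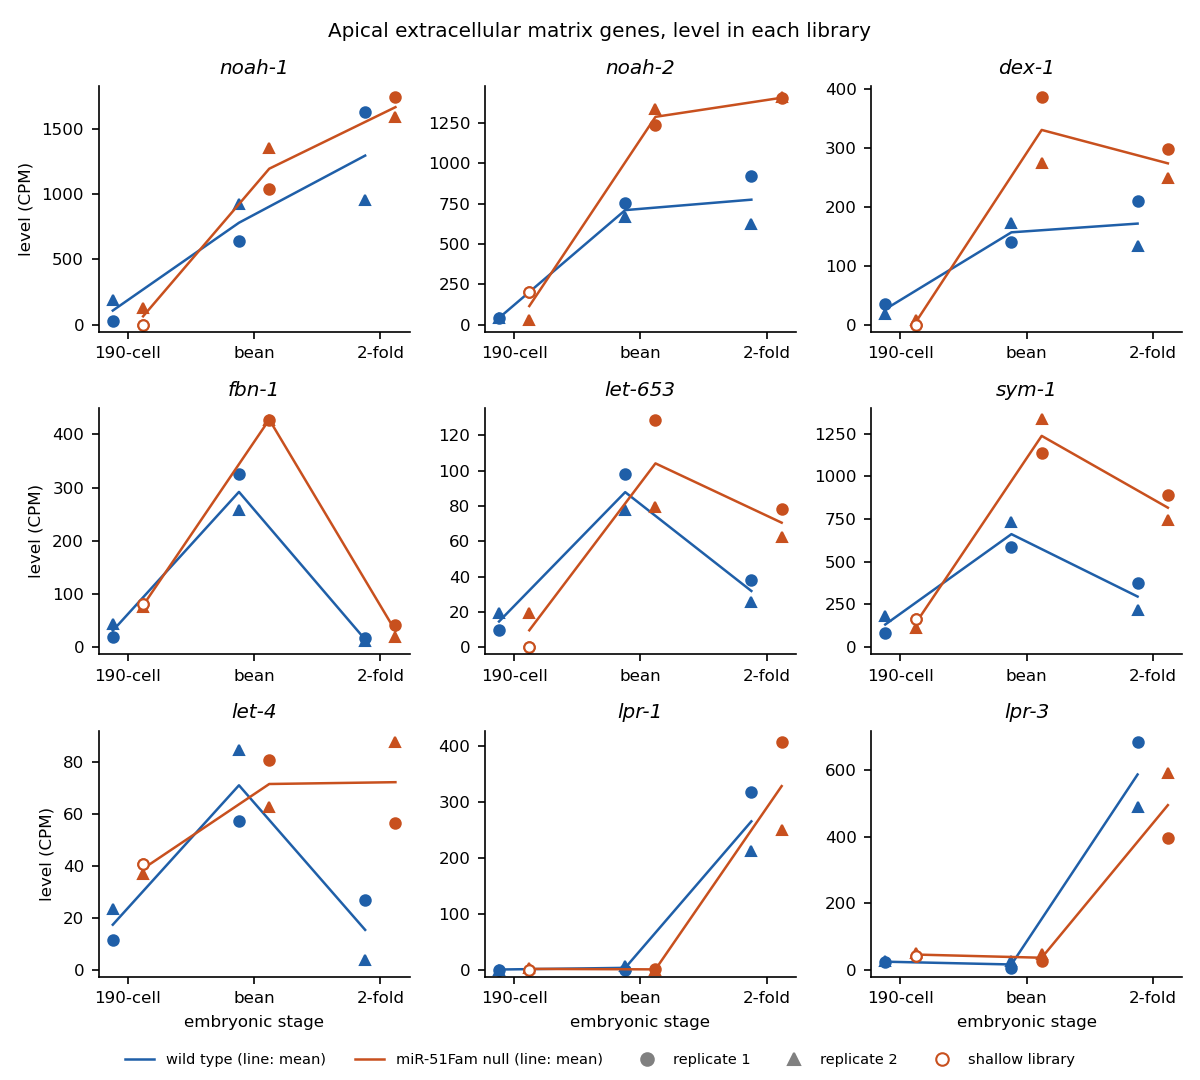
Level of each apical extracellular matrix gene (CPM, linear axes that differ between genes) against embryonic stage, with 1 point for each library and lines through the mean of 2 libraries. The open circle is the shallow null 190-cell library with 11081 reads. fbn-1 peaked at the bean stage in both genotypes, and lpr-1 and lpr-3 were high only at the 2-fold stage among the 3 stages sampled.

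noah-1 encodes a ZP protein of the embryonic sheath and, later, of the molting cuticle. In wild-type embryos it measured 27 and 189.0 CPM at the 190-cell stage, 637.3 and 921.9 CPM at the bean stage and 1629.2 and 956.9 CPM at the 2-fold stage. Each bean library was above each 190-cell library and each 2-fold library was above each bean library. The first step was 7.22-fold in mean CPM (log2 change 2.87, SE 0.88) but was not called, with an edgeR adjusted p of 0.148. It passed in 7 of 20 alternative analyses, among them DESeq2 (adjusted p = 1.5e-04) and the fits without either wild-type 190-cell library (0.0207 without replicate 1 and 1.39e-05 without replicate 2) or without wild-type 2-fold replicate 2 (3.5e-11). In null embryos noah-1 measured 0 and 128.0 CPM, the 0 being the shallow library, then 1034.8 and 1351.1 CPM, then 1738.5 and 1588.7 CPM. The null rise to the bean stage was not called (log2 change 3.53, SE 0.98, edgeR adjusted p = 0.0982), and passed in 8 of 20 alternatives.

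noah-2 encodes a ZP protein closely related to NOAH-1. It measured 41.8 and 42.3 CPM in wild-type 190-cell embryos, 755.4 and 666.0 CPM at the bean stage and 925.2 and 625.8 CPM at the 2-fold stage. It rose 16.9-fold from the 190-cell to the bean stage (log2 change 4.08, SE 0.50, edgeR adjusted p = 2.6e-06), and the bean and 2-fold libraries overlapped. In null embryos it measured 203.6 and 27.5 CPM, the first value being 5 reads of the shallow library, then 1237.9 and 1340.9 CPM and then 1404.3 and 1411.5 CPM. The rise to the bean stage was called there too (log2 change 4.74, SE 0.64, edgeR adjusted p = 2.0e-05), and it was called in all 20 alternatives in each genotype. The null change was 5.49 without the shallow library and 2.30 without null 190-cell replicate 2 (adjusted p = 0.0362), which leaves the 5 reads as the group's level.

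dex-1 encodes a secreted protein with a ZP domain that acts with DYF-7 in holding dendrite tips and also acts in the epidermis. Wild-type embryos had 35.0 and 17.3 CPM at the 190-cell stage, 140.2 and 172.7 CPM at the bean stage and 209.2 and 133.4 CPM at the 2-fold stage. The first step was 5.99-fold (log2 change 2.56, SE 0.52, edgeR adjusted p = 0.00171, and 3.24 without 190-cell replicate 1), and the later libraries overlapped. Null embryos had 0 and 7.30 CPM, then 385.2 and 274.8 CPM, then 298.5 and 248.2 CPM. The null 190-cell level was under its floor of 21.4 CPM, and the bean level was 15.4 times that floor (edgeR adjusted p = 1.8e-05 for the rise, and 0.109 without null 190-cell replicate 2).

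fbn-1 encodes a fibrillin-related protein with a ZP domain, which lets the epidermis resist pulling forces as the embryo lengthens. It showed a sharp peak. Wild-type embryos had 18.3 and 43.5 CPM at the 190-cell stage, 326.3 and 257.3 CPM at the bean stage and 17.6 and 10.9 CPM at the 2-fold stage. It rose 9.44-fold (log2 change 3.26, SE 0.58, edgeR adjusted p = 3.5e-04, and 3.97 without 190-cell replicate 2) and then fell by 4.30 on the log2 scale (SE 0.61, edgeR adjusted p = 2.7e-05), a bean level 20.5 times that at the 2-fold stage. Null embryos followed the same course at 81.4 and 75.2 CPM, then 427.9 and 427.6 CPM, then 42.4 and 18.6 CPM, with a rise of 2.48 (SE 0.63, edgeR adjusted p = 0.0149) and then a change of -3.82 (SE 0.59, edgeR adjusted p = 4.9e-05) on the log2 scale. The null rise was not called without null 190-cell replicate 2 (adjusted p = 0.787) or null bean replicate 2 (0.0642). Of the 9 genes it was the only one called lower from the bean to the 2-fold stage, and that in both genotypes. The overlapping gene upp-1 measured 129.2 and 89.6 CPM at the wild-type bean stage and 58.4 and 100.7 CPM at the 2-fold stage, without such a peak.

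let-653 encodes a mucin-like ZP protein that lines the lumen of the excretory duct. In wild-type embryos it measured 9.88 and 19.1 CPM, then 97.9 and 77.7 CPM, then 38.1 and 25.5 CPM. The rise was 6.06-fold (log2 change 2.62, SE 0.77) with an edgeR adjusted p of 0.0424, which left the call near its threshold. It was called in 13 of 20 alternatives and lost without any 1 of the wild-type 190-cell or bean libraries or without wild-type 2-fold replicate 1. It was also lost with TMMwsp scaling (edgeR adjusted p = 0.0666) and with replicate number in the fit (0.0566). Its later decline (log2 change -1.45, SE 0.74, edgeR adjusted p = 0.357) was not called, although the libraries did not overlap. Null embryos had 0 and 19.1 CPM, then 128.8 and 79.5 CPM, then 78.5 and 62.6 CPM, and the rise there was not called (log2 change 2.61, SE 0.90, edgeR adjusted p = 0.0989). The null 190-cell level was under its floor of 21.4 CPM, and the null bean level was 4.87 times that floor.

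sym-1 and let-4 encode related secreted proteins made of leucine-rich repeats, and LET-4 is needed for the excretory duct and pore to keep their junctions. sym-1 measured 85.0 and 179.4 CPM in wild-type 190-cell embryos, 588.3 and 734.7 CPM at the bean stage and 372.5 and 219.5 CPM at the 2-fold stage. It rose 5.0-fold (log2 change 2.33, SE 0.42, edgeR adjusted p = 4.6e-04, and 2.94 without 190-cell replicate 2), and the fall that followed was not called (log2 change -1.15, SE 0.41, edgeR adjusted p = 0.119). In null embryos it measured 162.9 and 113.4 CPM, then 1138.7 and 1335.3 CPM, then 890.7 and 742.3 CPM, and rose by 3.32 on the log2 scale (SE 0.50, edgeR adjusted p = 6.4e-05), which was 2.56 and not called without null 190-cell replicate 2 (0.0830).

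Its neighbour let-4 was read much less deeply. Wild-type embryos had 11.3 and 23.2 CPM, then 57.5 and 84.6 CPM, then 27 and 3.64 CPM, the last value being 3 reads. Neither the rise (log2 change 2.05, SE 0.86, edgeR adjusted p = 0.247) nor the decline (log2 change -2.13, SE 0.86, edgeR adjusted p = 0.203) was called. Null embryos had 40.7 and 37.0 CPM, then 80.7 and 62.6 CPM, then 56.7 and 87.9 CPM, with no peak at the bean stage. Over the 11 deeper libraries the log2 levels of let-4 and sym-1 had a Pearson r of 0.718, and the gene that sym-1 followed most closely among the 9 was let-653 (r = 0.955). These correlations share the stage changes and the library depths.

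The lipocalin genes behaved differently from the rest. lpr-1, which acts in the excretory tubes, had no read in either wild-type 190-cell library, 0 and 12 reads (0 and 5.97 CPM) at the bean stage and 1941 and 175 reads (319.0 and 212.2 CPM) at the 2-fold stage. The wild-type 2-fold level was at least 32.9-fold higher than the 190-cell level, taking the group floor of 8.06 CPM. From the bean to the 2-fold stage it rose by 6.39 on the log2 scale (SE 0.96, edgeR adjusted p = 2.5e-04), from a bean level under its floor. The 2-fold level was 31.3 times that floor of 8.49 CPM, and the fitted change was 5.68 without wild-type bean replicate 1 and 12.69 without replicate 2. A change from the 190-cell to the bean stage was also called (edgeR adjusted p = 0.0394), but both levels were under their floors. That call rested on the 12 reads of bean replicate 2, about 1.42 molecules, and without that library the log2 change was 0.0. It was kept in 8 of 19 alternatives, and also lost without wild-type 190-cell replicate 1 or 2, without null 190-cell replicate 1 or 2 and without null 2-fold replicate 1 or 2. Changed processing lost it too, for example DESeq2's test (adjusted p = 0.152) and counts divided by reads per molecule (edgeR adjusted p = 0.564). In null embryos lpr-1 had 0 and 4 reads, then 1 and 0 reads, then 913 and 1866 reads (407.4 and 250.0 CPM). The null bean level was under its floor of 9.38 CPM, and the null 2-fold level was 35.0 times that floor (edgeR adjusted p = 9.6e-06 for the rise).

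lpr-3, which encodes a component of the early matrix, was present at a low level from the start. Wild-type embryos had 22.2 and 25 CPM at the 190-cell stage, 5.51 and 24.9 CPM at the bean stage and 684.9 and 490.0 CPM at the 2-fold stage. It rose 38.7-fold at the second step (log2 change 5.25, SE 0.63, edgeR adjusted p = 2.4e-06), or by 6.90 on the log2 scale without wild-type bean replicate 2. Null embryos had 40.7 and 49.4 CPM, then 24.8 and 46.2 CPM, then 397.6 and 592.5 CPM, a rise of 3.79 on the log2 scale (SE 0.58, edgeR adjusted p = 4.5e-05), or of 4.58 without null bean replicate 2. Of the level of each gene summed over the 3 stage means in wild-type embryos, the 2-fold stage held 98.9% for lpr-1 and 93.8% for lpr-3, against 4.23% for fbn-1, which had 86.6% at the bean stage.

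**Figure D2:**
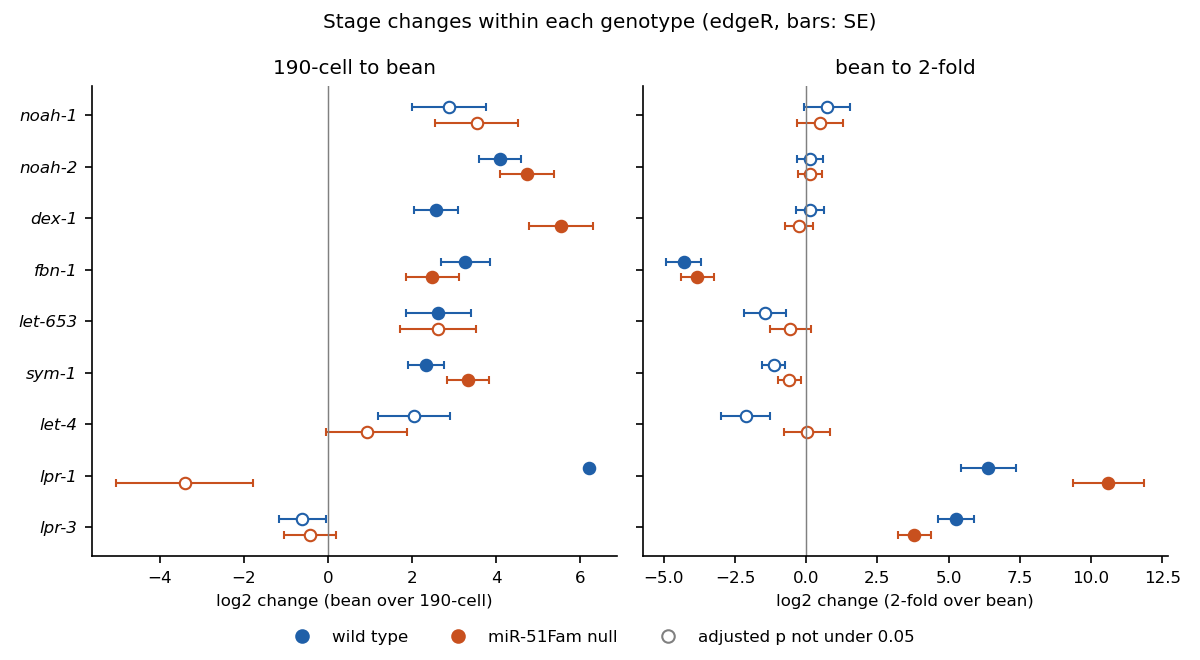
Log2 change of each gene at the first step (190-cell to bean, left) and at the second (bean to 2-fold, right), in wild-type and miR-51Fam null embryos, with bars for the SE and open points where the adjusted p was not under 0.05. The wild-type point of lpr-1 in the left panel has no SE, since the 190-cell group had no read, and rests on 12 reads. In the right panel fbn-1 lies at -4.30 and -3.82 and lpr-3 at 5.25 and 3.79.

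Counted together, 6 of the 9 genes were called higher in wild-type embryos between the 190-cell and bean stages and none lower, where 4.18% of all genes tested were called higher. Without lpr-1, whose level was under the floor, 5 were (let-653, noah-2, dex-1, fbn-1 and sym-1). In null embryos 4 of 9 were called higher (noah-2, dex-1, fbn-1 and sym-1) against a background of 4.63%, and the count was also 4 without the shallow library. With the shallow library as the group's single member, that is without null 190-cell replicate 2, it was 1. From the bean to the 2-fold stage the calls were lpr-1 and lpr-3 higher and fbn-1 lower in both genotypes, against backgrounds of 3.16% higher and 1.19% lower in wild-type embryos and 4.48% higher and 4.44% lower in null embryos. The median log2 change of the 9 was 2.62 in the first wild-type step (2.56 with lpr-1 set to no change) where that of all genes tested was 0.0, and 0.13 in the second, where that of all genes was 0.19. Both bean libraries were above every other library of the genotype for 4 of 9 genes in wild-type embryos (fbn-1, let-4, let-653 and sym-1) and for 3 in null embryos (fbn-1, let-653 and sym-1), where 5.89% and 9.39% of all genes were.

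The epidermis itself was tracked with 6 marker genes (lin-26, elt-3, dlg-1, ajm-1, vab-10 and che-14). Their summed level went from 377.0 and 373.2 CPM to 1562.2 and 1471.9 CPM and then 2186.9 and 1558.5 CPM in wild-type embryos, and from 366.5 and 286.9 CPM to 2054.8 and 1858.9 CPM and then 1902.3 and 1795.8 CPM in null embryos. The junction and cytoskeleton genes ajm-1, dlg-1 and vab-10 rose from the 190-cell to the bean stage in both genotypes. In wild-type embryos the mean of elt-3 went from 6.26 to 142.1 CPM and that of lin-26 from 161.6 to 219.2 CPM. The mean of che-14 went from 1.19 to 0.306 CPM, both under the floor. Of the 6 markers 3 were called higher at this step in each genotype, where 4.18% (wild type) and 4.63% (null) of all genes were. In whole embryos more cells of a type and more RNA in each cell cannot be told apart, so the part of the epidermal increase in the rise of the matrix genes was not tested. Excretory tube cells, which also make several of these proteins, had 4 markers (aqp-8, lin-48, vha-5 and exc-9). Of these, vha-5 rose from the bean to the 2-fold stage in both genotypes. The mean of exc-9 was 262.9 and then 275.9 CPM in wild-type and 236.4 and then 207.0 CPM in null embryos. No null library had an aqp-8 read, and lin-48 had no reads in any library but wild-type 2-fold replicate 1.

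**Figure D3:**
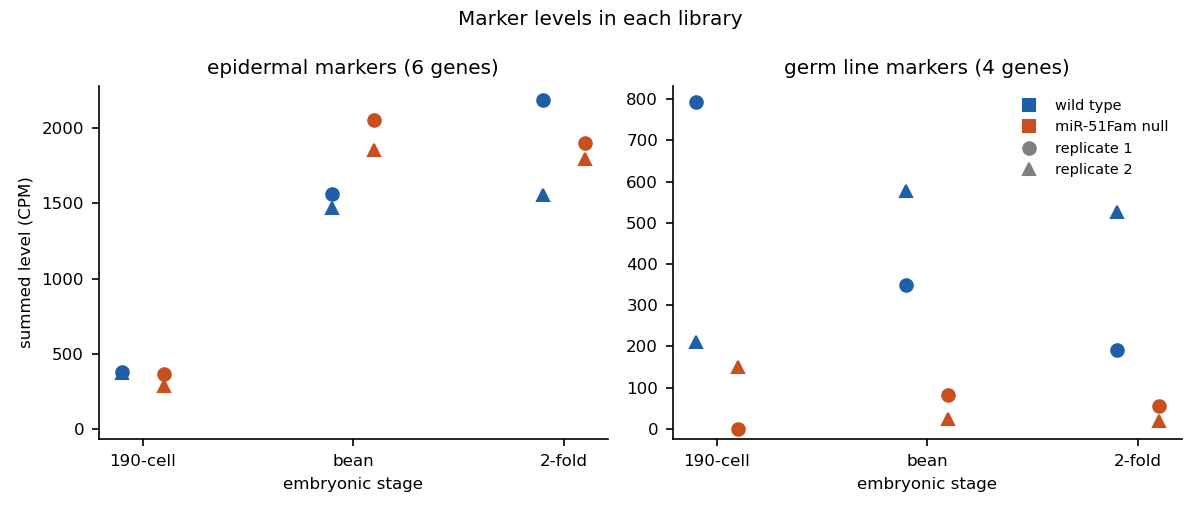
Summed level (CPM) of the 6 epidermal and the 4 germ line marker genes in each library, by stage. Epidermal markers lay at 377.0 CPM or less in every 190-cell library and at 1471.9 CPM or more in every later one, and at the bean and 2-fold stages germ line markers were at 82.8 CPM or less in every null library and at 190.3 CPM or more in every wild-type library.

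The genotypes were compared by the study to find mRNAs that respond to loss of these microRNAs. For the matrix genes, 0 of 9 passed the edgeR test between null and wild-type embryos at the 190-cell, the bean or the 2-fold stage, or on average over the stages, where 0.216%, 0.0663%, 2.16% and 4.52% of all genes did. At an unadjusted p under 0.05 there were 3, 4, 2 and 5 of 9, where 7.09%, 7.27%, 10.7% and 16.2% of all genes were, and DESeq2's test called 0, 0, 1 and 1 of the 9. Those at the 190-cell stage were fbn-1 and lpr-1, higher in null embryos, and dex-1, lower. There the lpr-1 levels and the null dex-1 level were under the floor. At the bean stage lpr-3, sym-1 and dex-1 were higher and lpr-1, under its floors, was lower. At the 2-fold stage and on average all of them were higher. The levels leaned upward in null embryos all the same. Both null libraries were above both wild-type libraries for 5 of 9 genes at the bean stage (noah-1, noah-2, dex-1, fbn-1 and sym-1), for 6 at the 2-fold stage (noah-2, dex-1, fbn-1, let-653, sym-1 and let-4) and at both of these stages for 4 (noah-2, dex-1, fbn-1 and sym-1). The shares of all genes tested that did so were 17.1%, 16.1% and 6.38%, and for none of the 9 were both null libraries below both wild-type libraries at these stages, where 16.7% (bean) and 25.9% (2-fold) of all genes were. The median log2 difference of the 9 was 0.61 at the bean stage and 0.86 at the 2-fold stage, where the medians of all genes tested were 0.0 and -0.14.

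sym-1 came closest to a call. Its null libraries stood at 1138.7 and 1335.3 CPM against 588.3 and 734.7 CPM at the bean stage (log2 difference 0.90, SE 0.40, edgeR adjusted p = 0.629), and at 890.7 and 742.3 CPM against 372.5 and 219.5 CPM at the 2-fold stage (log2 difference 1.46, SE 0.41, edgeR adjusted p = 0.0562). The 2-fold difference, 2.76-fold in mean CPM, passed the threshold in 12 of 20 alternatives, with adjusted p from 0.00583 to 0.638. The highest came without wild-type 2-fold replicate 2, which left a log2 difference of 0.99. It passed without wild-type 190-cell replicate 1 (0.0283) or 2 (0.0281), null 190-cell replicate 1 (0.0376) or null bean replicate 1 (0.0125) or 2 (0.0153). On average over the stages the log2 difference of sym-1 was 0.76 (SE 0.24, edgeR adjusted p = 0.0760), and it passed in 7 of 19 alternatives, among them the fits without wild-type 190-cell replicate 2 (0.0122), wild-type 2-fold replicate 1 (0.0472) or null bean replicate 1 (0.0150).

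noah-2 was 1.81-fold higher in null embryos at the bean stage and 1.82-fold higher at the 2-fold stage in mean CPM, a log2 difference of 0.86 with an SE of 0.44 at each (edgeR adjusted p = 0.722 and 0.501). Its null libraries were tightly placed, between 1237.9 and 1411.5 CPM over the 4, and its wild-type libraries lay between 625.8 and 925.2 CPM. dex-1 differed by 1.08 on the log2 scale at the bean stage (SE 0.49, edgeR adjusted p = 0.643) and by 0.67 at the 2-fold stage (SE 0.49, edgeR adjusted p = 0.664), and at the 190-cell stage it was instead at 0 and 7.30 CPM in null and 35.0 and 17.3 CPM in wild-type embryos. The test of whether its genotype difference changed from the 190-cell to the bean stage gave 2.99 on the log2 scale (SE 0.85, edgeR adjusted p = 0.248), and rests on null levels under the floor.

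fbn-1 was above wild type in both null libraries at all 3 stages, for which the share of all genes was not counted. At the bean and 2-fold stages together that share was 6.38%. In the shallow library the 81.4 CPM of fbn-1 were 2 reads. The log2 difference was 0.55 at the bean stage (SE 0.52, edgeR adjusted p = 0.878), 1.03 at the 2-fold stage (SE 0.56, edgeR adjusted p = 0.546) and 0.97 on average (SE 0.33, edgeR adjusted p = 0.0918), the last passing in 2 of 19 alternatives, one of them without wild-type 190-cell replicate 2 (0.0232). let-4 and let-653 separated at the 2-fold stage, by 2.15 (SE 0.86, edgeR adjusted p = 0.279) and by 1.13 (SE 0.73, edgeR adjusted p = 0.622) on the log2 scale. The let-4 difference was 1.29 without wild-type 2-fold replicate 2, where it had 3 reads, and 4.29 without wild-type 2-fold replicate 1.

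The lipocalin genes overlapped between genotypes at the 2-fold stage, when both were abundant. lpr-1 measured 407.4 and 250.0 CPM in null and 319.0 and 212.2 CPM in wild-type embryos, and lpr-3 measured 397.6 and 592.5 CPM in null and 684.9 and 490.0 CPM in wild-type embryos. Neither was near a call there, with an adjusted p of 1.0 for each. For none of the 9 did the genotype difference itself change between stages by an adjusted p under 0.05, where 0.0912% of all genes passed at the first step and 0.315% at the second. At an unadjusted p under 0.05 there were 2 and 1 of 9, where 5.86% and 6.42% of all genes were, and DESeq2's test called 0 and 0 of the 9.

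**Figure D4:**
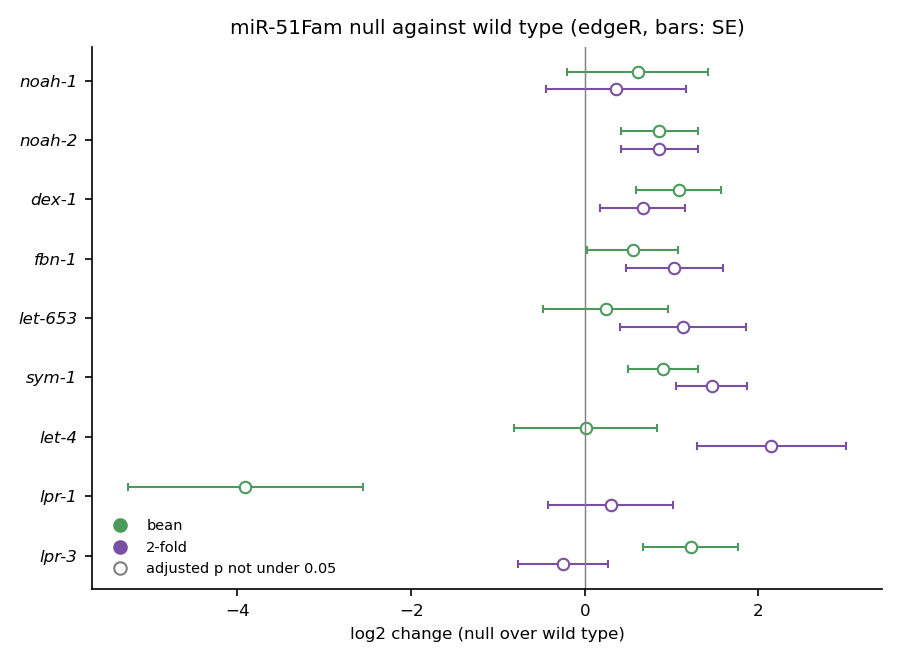
Log2 difference between miR-51Fam null and wild-type embryos for each gene at the bean and 2-fold stages, with bars for the SE. All points are open, since no adjusted p was under 0.05. sym-1 at the 2-fold stage lies at 1.46, and the lpr-1 point at the bean stage compares 1 read with 12.

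Values that moved with the genotype stand beside these differences. The summed level of 4 germ line markers (pgl-1, nos-2, glh-1 and meg-1) was 792.4 and 209.8, 349.5 and 577.9, and 190.3 and 526.4 CPM at the 3 stages in wild-type embryos. It was 0.0 and 149.9, 82.8 and 22.6, and 56.2 and 19.6 CPM in null embryos, with meg-1 at 0 reads in both null 2-fold libraries. These markers were called lower in null embryos for 1 of 4 (meg-1) at the 2-fold stage and for 2 of 4 (pgl-1 and meg-1) on average. Of all genes, 2.16% and 4.52% were called in either direction. The part of the germ line markers in the matrix gene differences was not tested. Within the wild-type 2-fold group all 9 matrix genes were lower in replicate 2 than in replicate 1, at 0.135 to 0.715 times its level, where 46.1% of all genes were lower. Replicate 2 was also the shallower library, with 887059 against 7223442 assigned reads, and the higher in germ line markers. At the wild-type 190-cell stage replicate 1 was higher in germ line markers and lower in the matrix sum (250.4 against 538.9 CPM). At the wild-type bean stage replicate 2 was higher in both (matrix sum 2945.8 against 2608.4 CPM). Whether the 2 sums go together was not tested. Without wild-type 2-fold replicate 2 the 2-fold log2 difference was 0.47 for noah-2, 0.25 for dex-1, 0.63 for fbn-1, 0.75 for let-653 and 0.99 for sym-1. Without wild-type 2-fold replicate 1 it was 1.16, 1.03, 1.46, 1.46 and 1.89 in the same order. Leaving out the lower or the higher wild-type library must move the difference down or up, so these values give its range only. The epidermal markers differed less, and 1 of 6 was called on average, where 4.52% of all genes were. It was che-14, a gene for apical secretion, at 25.9 and 17 CPM in null against 0.612 and 0 CPM in wild-type bean embryos.

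The lipocalin family was followed through its other 5 genes. From the bean to the 2-fold stage 2 of 5 were called higher in wild-type and the same 2 in null embryos, lpr-4 and lpr-5. lpr-4 measured 0 and 6.47 CPM at the wild-type bean stage and 1108.0 and 825.9 CPM at the 2-fold stage (edgeR adjusted p = 6.6e-04), and in null embryos 0.528 and 0 CPM and then 909.9 and 816.1 CPM (edgeR adjusted p = 1.6e-04). lpr-5 rose from 21.4 and 18.4 CPM to 1554.6 and 961.8 CPM in wild-type embryos (log2 change 5.98, SE 0.72, edgeR adjusted p = 1.3e-04) and from 49.6 and 12.3 CPM to 2040.6 and 1752.9 CPM in null embryos (log2 change 5.97, SE 0.71, edgeR adjusted p = 8.7e-05, and 7.42 without null bean replicate 1). lpr-6 and lpr-7 were not called, with 1439.4 and 1004.2 CPM for lpr-6 and 86.9 and 61.9 CPM for lpr-7 in wild-type 2-fold embryos, and lpr-2 stayed at 7.89 CPM or less in every library. Together with lpr-1 and lpr-3, 4 of the 7 lipocalin genes were thus called higher at this step in each genotype. The shares of all genes called higher were 3.16% in wild-type and 4.48% in null embryos.

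**Figure D5:**
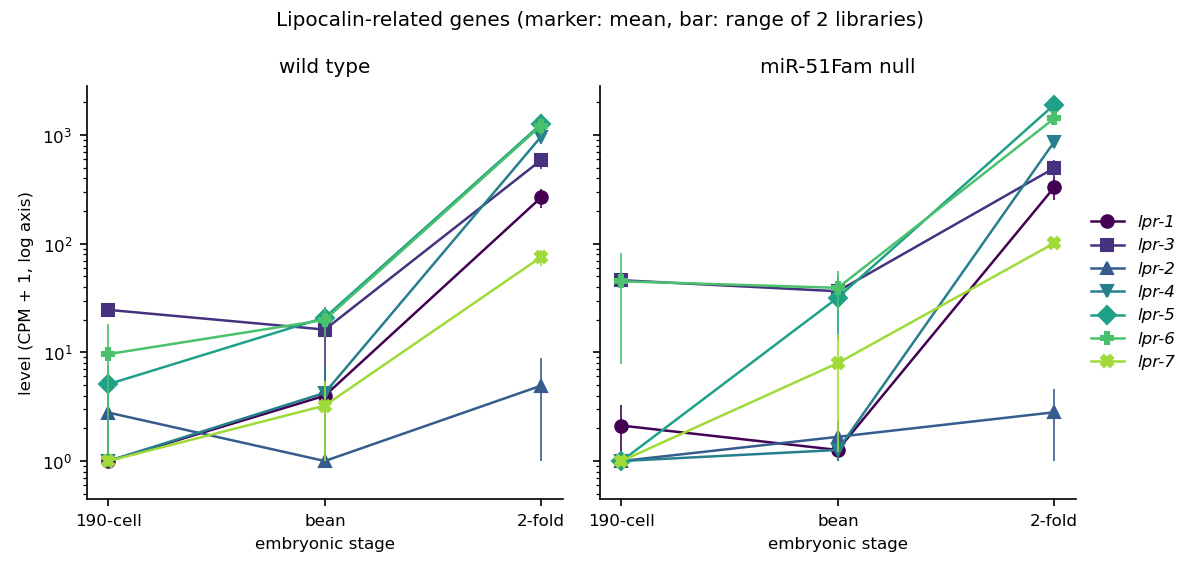
Level of the 7 lipocalin-related genes (CPM + 1, log axis) by stage in wild-type and miR-51Fam null embryos, with markers for the mean and bars for the range of 2 libraries. All 7 had their highest mean at the 2-fold stage in both genotypes, with lpr-2 at no more than 3.94 CPM.

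Other matrix genes divided over the same steps. Of 37 other ZP domain genes 25 could be tested. Between the 190-cell and bean stages in wild-type embryos 6 were called higher and none lower, where 4.18% of all genes were called higher. The cuticlin-like genes cutl-16 and cutl-28 had the smallest p, both without a read at the 190-cell stage and at 191.0 and 131.4 CPM and at 47.1 and 45.3 CPM at the bean stage (edgeR adjusted p = 9.4e-08 and 1.3e-05). At the next step 3 were called higher and 1 lower, where 3.16% and 1.19% of all genes were. cut-5, a cuticlin gene, went from no read to 91.1 and 71.6 CPM and cutl-13 from no read to 100.1 and 70.3 CPM (edgeR adjusted p = 2.2e-04 and 0.00483). However, cutl-13 was not called without wild-type bean replicate 1 or 2, or by DESeq2's test (adjusted p = 0.0922). cutl-2 had the course of fbn-1, with 341.0 and 264.3 CPM at the bean stage and 7.73 and 0 CPM at the 2-fold stage in wild-type embryos and 597.3 and 610.8 CPM and then 19.2 and 53.9 CPM in null embryos. Its wild-type decline (log2 change -5.85, SE 1.05, edgeR adjusted p = 0.00589) ended at a level under the 2-fold floor of 7.50 CPM. It was not called without wild-type bean replicate 1 or 2, and was -12.64 without wild-type 2-fold replicate 1 and -5.12 without replicate 2. None of the 25 was called between genotypes at any stage or on average.

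Of 18 other genes for extracellular leucine-rich repeat proteins 15 were tested. At the first wild-type step 2 were called higher and at the second 3, where 4.18% and 3.16% of all genes were. dma-1, which encodes a dendrite receptor, went from no read to 22 and 27.4 CPM at the bean stage (edgeR adjusted p = 9.3e-05, and 0.0621 with only the compared groups). lron-9 went from no read to 8.57 and 5.48 CPM, a bean level under the floor, and then to 224.4 and 133.4 CPM at the 2-fold stage (edgeR adjusted p = 0.00109 and 6.7e-04), and lron-15 from no read at the bean stage to 32.7 and 48.5 CPM (edgeR adjusted p = 0.00574). The first lron-9 call was lost with counts divided by reads per molecule (edgeR adjusted p = 0.357) and with only the compared groups (0.456). Between genotypes, 1 was called higher and 1 lower on average, where 4.52% of all genes were called in either direction. pan-1, at 243.3 and 291.5 CPM in null and 63.7 and 109.5 CPM in wild-type bean embryos, was higher by 1.10 on the log2 scale (SE 0.31, edgeR adjusted p = 0.0358). That call was lost without wild-type 190-cell replicate 1 (0.0754), wild-type bean replicate 1 (0.0772), wild-type 2-fold replicate 2 (0.102), null 190-cell replicate 2 (0.872) or null 2-fold replicate 2 (0.0754). egg-6, an epidermal and excretory duct protein, was called lower on average (edgeR adjusted p = 0.0284) with no read in either null 190-cell library, but at the 2-fold stage it was at 337.4 and 214.7 CPM in null and 129.7 and 141.9 CPM in wild-type embryos, and the call was kept in 10 of 19 alternatives. It was lost without 1 of 8 libraries, with adjusted p from 0.0538 to 0.839.

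Some collagens of the furrows and early cuticle came on with the first matrix genes. Of 12 such genes 10 were tested, and 5 were called higher from the 190-cell to the bean stage in wild-type embryos and 5 in null embryos. The shares of all genes were 4.18% and 4.63%. dpy-5, dpy-8, dpy-9, dpy-13, rol-6 and sqt-1 stayed at a bean mean of 4.98 CPM or less in both genotypes. dpy-7, a furrow collagen, went from no read to 443.2 and 298.7 CPM in wild-type embryos (edgeR adjusted p = 2.1e-11) and sqt-3, a cuticle collagen, from 25.5 and 43.5 CPM to 1481.4 and 1262.8 CPM (log2 change 5.33, SE 0.40, edgeR adjusted p = 2.3e-10). sqt-3 rose again to 3813.5 and 2737.3 CPM at the 2-fold stage (log2 change 1.26, SE 0.33, edgeR adjusted p = 0.0237). That rise was not called without wild-type bean replicate 2, wild-type 2-fold replicate 1 or null 2-fold replicate 2. With TMMwsp scaling it was not called either (edgeR adjusted p = 0.0887). None of the 10 was called between genotypes. Of 7 regulators of gene expression in the epidermis, nhr-25, a nuclear receptor, fell at the second wild-type step, from 25.7 and 36.3 CPM to 0 and 2.43 CPM (log2 change -5.79, SE 1.38, edgeR adjusted p = 0.0102). The 2-fold level was under its floor of 7.50 CPM. The change was -3.65 and not called without wild-type 2-fold replicate 1 and -9.55 without replicate 2. With only the compared groups it was not called either (edgeR adjusted p = 0.0955). None of the 7 was called between genotypes.

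Over the 11 deeper libraries, the genes whose log2 level most resembled the mean profile of the 9 matrix genes were the ribosomal protein genes rpl-16 (Pearson r = 0.987), rpl-25.1 (0.985), rpl-9 (0.978), rpl-29 (0.978) and rps-21 (0.977) and the formin gene daam-1 (0.977). The mean level of rpl-16 went from 567.3 to 1650.9 and 2186.8 CPM in wild-type and from 405.2 to 2012.0 and 3074.7 CPM in null embryos. These points share their libraries and depths, and the mean profile joins genes with unlike courses: within the 9, dex-1 and noah-2 had an r of 0.971 and lpr-1 and lpr-3 of 0.938, while fbn-1 and lpr-3 had -0.692.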

How the data were processed

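Poly(A) RNA of 12 whole-embryo samples was sequenced with the Lexogen QuantSeq 3′ kit. According to the study's methods, unique molecular identifiers were extracted with UMI-tools, reads were trimmed and mapped to WBcel235 with STAR, duplicates were discarded and genes were counted with HTSeq. The submitters' processing notes name STAR, HTSeq and DESeq2. Versions, annotation release and strand setting are not given in the sources used here. The authors deposited unnormalised counts per gene, 1 file for each library with 20362 genes and 5 summary lines, which were left out of library sizes and tests. Of all reads 31.8% to 53.7% were assigned to genes and 39.3% to 63.5% had several mapping places. Gene IDs were matched to symbols with the Ensembl release 115 annotation and its companion name table (19643 of 20362). Sequences of the genes are not used here.

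Genes with 20 or more counts in total (12062) were fitted in edgeR 4.0.16 (R 4.3.3) with TMM library sizes and 1 mean for each of 6 groups. The robust quasi-likelihood F test was two-sided, with Benjamini-Hochberg adjustment over all genes. Standard errors were computed as the log2 change over the root of F, and left out for groups with no read. The 10 contrasts were null minus wild type at each stage and on average, the 2 stage steps in each genotype and the change of the genotype difference between stages. CPM use TMM-scaled library sizes. For reads per molecule, genes at 1 to 3 CPM elsewhere were taken in each library, and their mean reads were set against the share with no read. The estimates (up to 56.8) differ from what the stated discarding of duplicates would leave, so the deposited counts were read as reads and not as molecules. The test script was tested on simulated data. The 20 alternatives were DESeq2 size factors, TMMwsp scaling, DESeq2's test (version 1.42.0), no filter, filterByExpr, each library left out in turn, a replicate block, counts divided by reads per molecule, and only the compared groups.

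All 9 matrix genes were named. From each other list, genes were named by the smallest p, at most 2 in each direction in each wild-type step and each genotype comparison. Other family members with no call, single marker genes and neighbouring genes were added for context. The most similar genes were the 6 with the highest Pearson r of log2(CPM + 1) with the mean profile. The matrix genes and the lists were chosen with earlier results of these data known.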

Additional observations from a re-analysis of the deposited data

How the results depend on the processing

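Of the values for single genes, 1035 comparisons of an alternative with the main value stayed on the same side of the threshold, 50 lost a call and 48 gained one, and none changed direction. For counts of matrix genes called, 169 alternatives stayed within 1.5 times the main count. Between genotypes at the 2-fold stage the main count was 0, and it was 1 with DESeq2 size factors, TMMwsp, DESeq2's test, no filter, counts divided by reads per molecule and only the compared groups, and 0 to 1 leaving out single libraries. On average over the stages it was 0, with 1 under DESeq2 size factors, DESeq2's test and counts divided by reads per molecule, 2 with no filter and 0 to 3 leaving out single libraries. With no filter 1 was called between genotypes at 190 cells and 1 at the bean stage. The wild-type step from the bean to the 2-fold stage had 3 calls, and 6 with counts divided by reads per molecule. The null step from the 190-cell to the bean stage had 4 calls, and 1 to 5 leaving out single libraries. For the change of the genotype difference from the 190-cell to the bean stage the count was 0, with 1 under no filter and 0 to 1 leaving out single libraries; the gene was lpr-1, whose levels there are under the floor. The cause of these differences was not tested. Where leaving out a library left 1 in its group, that library was assumed to vary like the others. Fits without single libraries gave 4 to 7 calls in the first wild-type step.

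Libraries with the same replicate number did not deviate together (r from -0.171 to 0.190 over 15 pairs of groups), so the numbers were not taken as pairs. With the replicate block 1 matrix gene, sym-1, was called between genotypes at the 2-fold stage (adjusted p = 0.0268) and 1, lpr-1, for the change of the genotype difference from the 190-cell to the bean stage. With the block let-653 was no longer called in the first wild-type step (0.0566) and noah-1 was called in the first step of each genotype.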
